A study of Mus musculus with 6 samples.

Results

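The 10 genes Ltf, Camp, Ngp, Lcn2, Fcnb, Mmp8, Mmp9, S100a8, S100a9 and Chil3 encode proteins of the secondary (specific) and gelatinase granules of neutrophils and secreted or cytosolic proteins made in large amounts by the same cells. They were chosen by name out of 22180 genes measured, each through the only transcript cluster (the array's probe set for a gene) that carried its symbol alone. The cells were myeloid cells of mouse fetal liver, all grown with GM-CSF at 1 ng/ml, the cytokine that supports granulocyte and macrophage growth. There were 3 uninduced samples, A, B and C, without doxycycline, and 3 induced samples, lettered likewise, with 1000 ng/ml of it. The time given for both groups was 72 hours. The labels give the induced treatment as PU.1 expression. RNA of each was hybridised to 1 Mouse Gene 2.0 ST array. The labels name no strain, construct, promoter or clone and hold no group given the drug without PU.1, so the drug and PU.1 cannot be told apart. Nor do they state that A, B and C were grown separately; p-values here cover only how far these 3 samples of a group differ, which can be technical.

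Neutrophils build their granules in waves. Primary granules with proteases such as elastase form first, in promyelocytes; secondary granules with lactoferrin, cathelicidin and lipocalin 2 follow in myelocytes and metamyelocytes, and gelatinase granules come last. Expression of most secondary granule genes is known to need the factor C/EBP epsilon, while PU.1, the ETS-family factor encoded by Spi1, acts in both granulocytes and macrophages. S100A8 and S100A9 form the heterodimer calprotectin, a major cytosolic protein of neutrophils.

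Of the 10 genes, 4 rose in induced cells, namely Chil3, Ltf, Mmp8 and S100a9, and 0 fell (limma, Benjamini-Hochberg adjusted p under 0.05 over all genes). By the same test 0.374% of all genes were higher and 1.05% lower; the higher genes were 26.3% of all calls, and 41.3% after cyclic loess. At an unadjusted p under 0.05, 7 members were higher and 1 lower, against 11.4% and 16.9% of all genes. The members that did not pass were Lcn2, Mmp9, S100a8, Camp, Ngp and Fcnb, with measured log2 changes from 0.67 for Lcn2 to -0.81 for Fcnb. In RNA of a whole culture, more cells of a type and more RNA per cell cannot be told apart. The median change over the 10 genes was 0.56, against 0.06 over all genes; every change given here is a log2 difference, induced minus uninduced.

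Promoter sequences are shown for the 4 genes that rose and, for contrast, for S100a8 and Ngp, which lie near S100a9 and Ltf in the genome and did not pass the test. Each line holds the 250 bases before the annotated start, 5′ to 3′ on the gene's strand, from RefSeq (GRCm38.p6). Capitals mark matches, on either strand, to the letters GAGGAA or AGGAAGT, taken from the consensus of PU.1, or TTGCNNAA, taken from that of C/EBP factors.
Mmp8, chr9:7558179-7558428, plus strand: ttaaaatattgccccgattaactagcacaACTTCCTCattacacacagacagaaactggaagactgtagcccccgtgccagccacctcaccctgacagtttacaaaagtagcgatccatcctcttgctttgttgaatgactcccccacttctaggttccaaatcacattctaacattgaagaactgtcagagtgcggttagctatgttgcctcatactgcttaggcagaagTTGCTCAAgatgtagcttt
Chil3, chr3:106167565-106167814, minus strand: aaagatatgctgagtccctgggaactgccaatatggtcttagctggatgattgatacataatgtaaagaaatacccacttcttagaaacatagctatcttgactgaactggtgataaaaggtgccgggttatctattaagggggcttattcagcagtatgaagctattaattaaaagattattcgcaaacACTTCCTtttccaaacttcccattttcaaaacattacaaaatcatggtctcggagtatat
Ltf, chr9:111019042-111019291, plus strand: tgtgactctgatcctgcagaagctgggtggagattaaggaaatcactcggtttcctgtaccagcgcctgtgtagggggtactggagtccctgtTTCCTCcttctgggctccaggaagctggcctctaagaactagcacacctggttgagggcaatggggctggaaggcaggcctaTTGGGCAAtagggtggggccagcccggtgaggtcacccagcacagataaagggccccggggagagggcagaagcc
S100a9, chr3:90695722-90695971, minus strand: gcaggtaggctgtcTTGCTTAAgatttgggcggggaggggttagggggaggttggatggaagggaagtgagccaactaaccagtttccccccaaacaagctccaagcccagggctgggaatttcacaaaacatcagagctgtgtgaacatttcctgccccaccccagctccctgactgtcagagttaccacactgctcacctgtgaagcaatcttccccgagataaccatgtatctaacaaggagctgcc
S100a8, chr3:90668821-90669070, plus strand: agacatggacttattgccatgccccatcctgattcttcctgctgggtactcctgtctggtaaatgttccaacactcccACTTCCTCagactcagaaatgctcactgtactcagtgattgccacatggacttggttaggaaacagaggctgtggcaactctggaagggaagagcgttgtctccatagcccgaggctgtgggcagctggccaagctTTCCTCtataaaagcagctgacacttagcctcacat
Ngp, chr9:110419558-110419807, plus strand: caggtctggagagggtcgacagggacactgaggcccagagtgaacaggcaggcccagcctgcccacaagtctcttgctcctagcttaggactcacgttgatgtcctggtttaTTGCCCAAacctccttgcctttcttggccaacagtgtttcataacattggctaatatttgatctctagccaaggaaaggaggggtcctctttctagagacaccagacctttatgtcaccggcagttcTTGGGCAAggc
The letters GAGGAA and AGGAAGT overlap in Mmp8 and S100a8, where both are read on the opposite strand within 1 stretch of capitals.

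A promoter entry was found for 9 of the 10 genes, all but Mmp9. AGGAAGT lay in the promoters of Mmp8, Chil3, S100a8 and Fcnb, which is 4 of 9, and in 7.69% of 32851 promoter windows of the same length. GAGGAA was found in 4 of 9 (Ltf, Lcn2, Mmp8 and S100a8) and in 23.3% of all windows, and TTGCNNAA in 6 of 9 (Ltf, Ngp, Lcn2, Mmp8, S100a9 and Fcnb) and in 9.56%. Genes that rose and genes that did not both held matches. Chil3 had AGGAAGT from 60 to 54 bases before its start. Fcnb, whose measured change was below 0, had it from 103 to 97 bases before the start used for its window. That window runs from 28084879 to 28085128 on chromosome 2 and overlaps the gene span given below, which ends at 28084910. A TATA sequence, TATAAA, was found in S100a8 alone, from 30 to 25 bases before the start, and in 12.4% of all windows. These letters were chosen for display after their matches in these promoters had been seen. The other strings searched were GAGGAAGT, which joins both PU.1 strings (2 of 9 and 2.44% of all windows), CACTTCC (4 of 9 and 8.55%) and the ETS core GGAA (9 of 9 and 93.4%). A match describes these letters and is not a measured binding site.

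Background on the arrays was taken as the 95th percentile of 1394 olfactory and vomeronasal receptor genes, most of which were assumed to be silent in these cells. It was 7.37, 7.05 and 7.34 on uninduced arrays A to C and 7.39, 7.99 and 7.85 on induced arrays A to C. A value under the background of its own array is called in the range of background. On induced B and C 25.5% and 28.4% of genes lay above background, against 39.2% to 45.1% on the other arrays. Genes above it on all 6 arrays, 5391 in number, had a median change of -0.31, and 14.1% of them had a change above 0; genes in the range of background on all 6 had a median change of 0.19. Induced A correlated at 0.991 with uninduced A, and at 0.973 and 0.981 with induced B and C, over all transcript clusters. Spi1, the gene behind the labelled PU.1 expression, was at 8.80, 8.65 and 8.84 on uninduced arrays A to C and at 9.13, 9.04 and 9.05 on induced arrays A to C, a change of 0.31 (SE 0.12, limma adjusted p = 0.152). Whether its probes read an engineered copy is not known here.

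**Figure D1:**
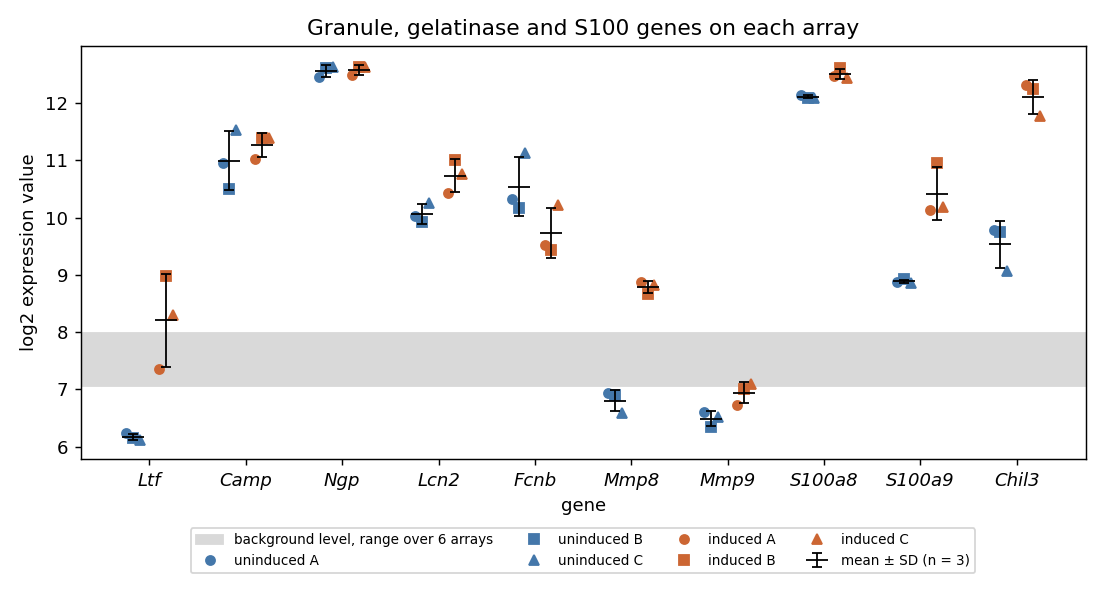
Log2 expression value (y axis) of each of the 10 genes (x axis) on the 3 uninduced (blue) and 3 induced (orange) arrays, with the mean ± SD of each group (n = 3); the grey band spans the background level of the 6 arrays, 7.05 to 7.99. The induced values of Chil3, Mmp8, S100a9 and Ltf lie above the uninduced ones with a wide gap, those of Ngp and Camp overlap, and both groups of Mmp9 stay in the range of background.

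Among the genes of secondary granules, Ltf rose and Camp and Ngp, on the same chromosome, did not pass the test. Ltf (chromosome 9, 111019292 to 111042766 in GRCm38) encodes lactoferrin, the iron-binding protein used to recognise these granules. Its log2 values were 6.23, 6.15 and 6.12 on uninduced arrays A to C and 7.35, 8.97 and 8.29 on induced arrays A to C. The uninduced values lay close together in the range of background. The induced values lay above them and had the largest SD of the 10 genes in either group, 0.81, with induced A lowest and still in that range. The change was 2.04 (SE 0.31, limma adjusted p = 0.0114). Since the uninduced level is only a bound, the rise is at least 1.94-fold, counted from the mean background level of the uninduced arrays. Background was higher on induced B and C than on the uninduced arrays, and this count takes no account of that. The call ended without uninduced A, uninduced B or induced C (adjusted p = 0.0589, 0.0525 and 0.0569), at changes between 2.00 and 2.07, and was kept when each of the other 3 arrays was left out.

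Camp (chromosome 9, 109847377 to 109849456) encodes the precursor of the cathelicidin peptide CRAMP, which kills bacteria. It was at 10.96, 10.50 and 11.53 on uninduced arrays A to C and at 11.02, 11.39 and 11.40 on induced arrays A to C. The groups overlapped, and uninduced C had the highest value of all; the change was 0.27 (SE 0.23, limma adjusted p = 0.400), with a 95% interval from -0.24 to 0.78. Ngp (chromosome 9, 110419808 to 110423012) encodes neutrophilic granule protein, which shares a cystatin-like fold with the cathelicidin precursor. Its values of 12.45, 12.60 and 12.64 on uninduced and 12.49, 12.64 and 12.63 on induced arrays A to C were nearly the same in both groups. The change of Ngp was 0.02 (SE 0.13, limma adjusted p = 0.909), with a 95% interval from -0.26 to 0.30, so a rise as large as that of Ltf lay outside it. Among the 110 genes with an uninduced mean of at least 12, which include Ngp, the largest measured change was 0.40. Under median centring, which lowers the median of all genes from 0.06 to -0.08, Ngp was at -0.12.

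A difference between genes was also computed directly for 5 pairs, as the change of the first gene minus that of the second. Ngp lies 570 kb from Camp and 596 kb from Ltf, and Camp lies 1170 kb from Ltf. On the measured values the change of Ltf exceeded that of Camp by 1.77 (SE 0.47) and that of Ngp by 2.02 (SE 0.43). Ltf was in the range of background on the uninduced arrays and on induced A. Counted from the mean background level of the uninduced arrays, its change exceeded that of Camp by at least 0.68 and that of Ngp by at least 0.93. These counts take no account of the higher background on induced B and C, from which the differences would be smaller. Of 5 pairs computed, Mmp8 with Mmp9 and Chil3 with Chil4 are not given, since the second gene of each was in the range of background on all 6 arrays. For each of the 5 an exact permutation test (two-sided, 3 against 3 arrays) gave p = 0.1, the smallest it can give, and 0.1 after adjustment over the 5. The pairs were chosen with earlier results of these data known. In each the first gene passed the limma test and the second did not, so the permutation test adds no support.

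Lcn2 and Fcnb encode secreted recognition proteins of neutrophils. Lcn2 (chromosome 2, 32384637 to 32387739), lipocalin 2, binds bacterial siderophores and withholds iron. It was at 10.02, 9.92 and 10.26 on uninduced arrays A to C and at 10.43, 11.01 and 10.76 on induced arrays A to C. Each induced value lay above each uninduced one, as in 16% of all genes, and the change of 0.67 (SE 0.17, limma adjusted p = 0.0854) was 1.59-fold and did not pass. Fcnb (chromosome 2, 28076479 to 28084910) encodes ficolin B, a lectin that starts the lectin pathway of complement. Its values were 10.32, 10.17 and 11.12 on uninduced and 9.52, 9.44 and 10.22 on induced arrays A to C. Within both groups the C array was highest, and induced C reached above uninduced B, so the groups overlapped. Fcnb was the 1 member with a measured change below 0, at -0.81 (SE 0.27, limma adjusted p = 0.123; 95% interval from -1.40 to -0.22).

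Of the 2 matrix metalloproteinases among the members, Mmp8 rose and Mmp9 stayed in the range of background. Mmp25 is counted below with the further granule genes, not with the other matrix metalloproteinases. It was in the range of background on every array, with a measured change of 0.12 (SE 0.15). Mmp8 (chromosome 9, 7558429 to 7568486) encodes neutrophil collagenase, stored mainly in secondary granules. It was at 6.93, 6.89 and 6.59 on uninduced arrays A to C, all in the range of background, and at 8.88, 8.67 and 8.82 on induced arrays A to C, all above it. The SD over the 3 induced arrays was 0.11, and the change was 1.99 (SE 0.14, limma adjusted p = 0.000122), a rise of at least 2.90-fold. Mmp9 (chromosome 2, 164940326 to 164955850) encodes gelatinase B, the enzyme after which gelatinase granules are named. Its values of 6.60, 6.34 and 6.51 on uninduced and 6.733, 6.997 and 7.084 on induced arrays A to C did not overlap, but each was in the range of background. No fold is given for Mmp9; the measured change was 0.45 (SE 0.14, limma adjusted p = 0.118).

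S100a8 and S100a9, whose products pair in calprotectin, lie 22.6 kb apart on chromosome 3. S100a9 (90692630 to 90695721) was at 8.88, 8.92 and 8.86 on uninduced arrays A to C and at 10.13, 10.95 and 10.18 on induced arrays A to C. The SD over the uninduced arrays was 0.03, and induced B was the highest of all; the change of 1.53 (SE 0.20, limma adjusted p = 0.00474) was a 2.90-fold rise. S100a8 (90669071 to 90670034) was at 12.14, 12.09 and 12.09 on uninduced and at 12.48, 12.61 and 12.43 on induced arrays A to C. The groups of S100a8 did not overlap, but its change of 0.40 (SE 0.12, limma adjusted p = 0.114), or 1.32-fold, did not pass. The change of S100a9 exceeded that of S100a8 by 1.13 (SE 0.21), with 0.88, 1.55 and 0.97 on induced arrays A to C.

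S100a8 and Ngp were both among the 110 genes whose uninduced mean was at least 12. Of these 110, 0 were higher and 4 lower by limma (2 and 20 at an unadjusted p under 0.05), and 0.40, that of S100a8, was the largest change among them. Of the 1393 genes with an uninduced mean of at least 10, which also include Camp, Lcn2 and Fcnb, 1 was higher and 59 lower. That 1 gene was Lyz2, lysozyme M, which went from 11.30 ± 0.24 to 12.73 ± 0.03 (SD, n = 3), a change of 1.43 (SE 0.15, limma adjusted p = 0.00110). The median change of the 1393 genes was -0.32, and 8.26% of them had a change above 0, as did 4 of these 5 members.

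Chil3 (chromosome 3, 106147554 to 106167564) encodes the chitinase-like lectin Ym1, made by neutrophil precursors and by some activated macrophages. Its measured change was the largest of the 10 genes and the 6th largest increase of the 22180; the uninduced levels of Ltf and Mmp8 are only bounds, so their rank against it is not known. Its values were 9.79, 9.75 and 9.06 on uninduced arrays A to C and 12.32, 12.24 and 11.77 on induced arrays A to C. Both groups were above background throughout, with the C array lowest in each, and the groups did not overlap. The change was 2.57 (SE 0.21, limma adjusted p = 0.000297), or 5.96-fold. Its paralog Chil4 was in the range of background on all 6 arrays, at 5.59 ± 0.09 and 5.84 ± 0.17 (SD, n = 3). Whether the probes of Chil3 tell the 2 transcripts apart is not known here.

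**Figure D2:**
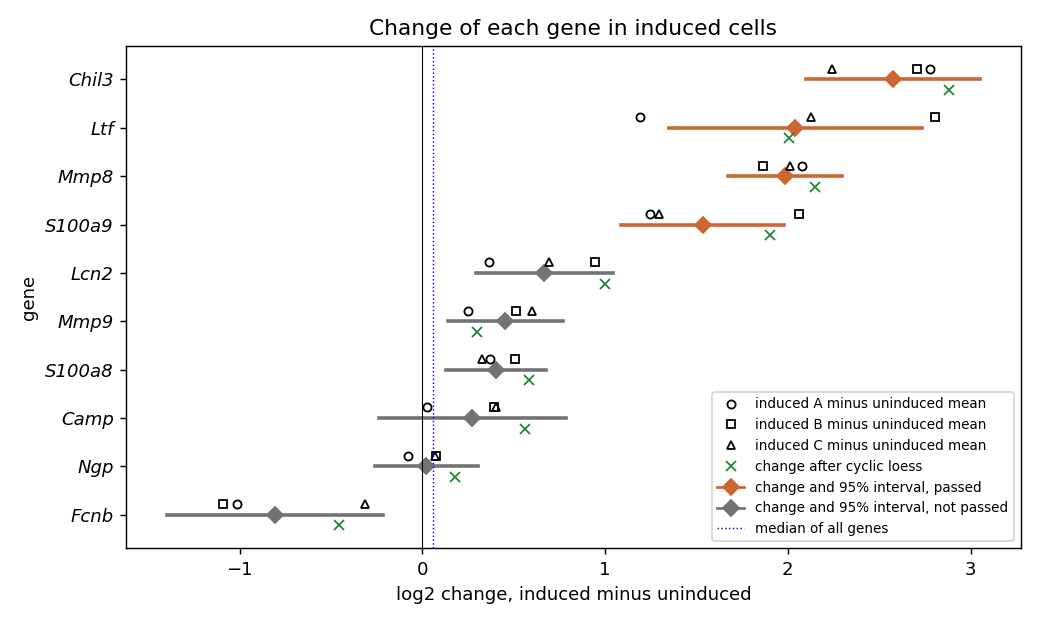
Log2 change, induced minus uninduced (x axis), of each gene (y axis): diamonds and bars are the change and its 95% interval from limma (orange where the adjusted p passed 0.05, grey otherwise), open symbols are induced A, B and C minus the uninduced mean, crosses the change after cyclic loess, the dotted line the median of all genes. Chil3, Ltf, Mmp8 and S100a9 lie between 1.53 and 2.57, the other genes between -0.81 and 0.67, and the 3 induced arrays of Ltf spread from 1.19 to 2.81.

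The 4 genes that rose had values above their uninduced mean on each induced array, though Ltf on induced A was still in the range of background. Relative to the uninduced mean, induced A, B and C were at 2.78, 2.71 and 2.24 for Chil3, at 2.08, 1.86 and 2.01 for Mmp8, at 1.25, 2.06 and 1.29 for S100a9 and at 1.19, 2.81 and 2.13 for Ltf. Induced A was the highest of the 3 for Chil3 and Mmp8 and the lowest for S100a9 and Ltf. With induced A alone against the uninduced arrays, an alternative added after seeing the data, the 4 genes still passed (limma adjusted p from 0.00335 for Mmp8 to 0.0375 for Ltf), beside 41 genes higher in all; the lone sample is assumed there to vary like the uninduced ones. Without induced A, 7 members were called higher, with Lcn2, Mmp9 and S100a8 added at adjusted p = 0.0103, 0.0226 and 0.0465, but 9.01% of all genes were then called higher too.

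For each of 2 members, the genes with the nearest pattern over the 6 arrays were sought, by the root mean square difference between the 2 genes' deviations from their own means. For Chil3, the member with the largest measured change, they were Bst1 (0.31), the macrophage marker Adgre1 (0.32) and the RNA receptor gene Tlr8 (0.35), against a median of 1.30 over all genes. Bst1, an ectoenzyme of myeloid and stromal cells, went from 6.46 ± 0.16 to 8.80 ± 0.19 (SD, n = 3), Adgre1 from 6.68 ± 0.23 to 8.84 ± 0.54 and Tlr8 from 6.51 ± 0.10 to 8.52 ± 0.27. All 3 started in the range of background. For Ngp, the member with the highest signal, the nearest were 1700018B24Rik, Helt and Mirlet7g (0.019 to 0.022), each in the range of background on all 6 arrays.

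The counts of related lists are given beside the shares of all genes, 0.374% higher and 1.05% lower (11.4% and 16.9% at an unadjusted p under 0.05). Of 8 genes of primary granules or neutrophil precursors, Ms4a3 and Igll1 among them, 1 rose and 0 fell (1 higher and 0 lower at an unadjusted p under 0.05). Mpo, myeloperoxidase, went from 6.92 ± 0.14, in the range of background, to 8.03 ± 0.32, at least 1.72-fold (limma adjusted p = 0.0117). Of 22 further genes of specific, gelatinase and secretory granules 2 rose and 0 fell (6 higher and 4 lower unadjusted): Cybb, the catalytic subunit of the phagocyte oxidase, at least 5.36-fold, and Lyz2. The median changes of these lists were 0.03 and 0.10.

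Of 14 regulators of granule genes 1 rose and 0 fell, against 0.374% and 1.05% of all genes (3 higher and 2 lower at an unadjusted p under 0.05). Csf3r, the G-CSF receptor, rose (0.95, SE 0.16, limma adjusted p = 0.0202; 0.0645 with median centring) and was above background on 1 of the 6 arrays, so no fold is given; the median change was -0.16. Cebpe, which encodes C/EBP epsilon and was chosen for mention after its value was seen, was at 11.29, 11.32 and 11.35 on uninduced arrays A to C and at 11.20, 10.56 and 11.21 on induced arrays A to C. All 3 induced values of Cebpe were below the uninduced ones, as for 3413 of the 22180 genes, with induced B lowest. The change of -0.33 (SE 0.18, limma adjusted p = 0.229) did not pass and was -0.04 after cyclic loess.

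Relatives of the members are set beside the same 0.374% and 1.05% of all genes. Of 16 other genes with S100 names, which include the S100P-binding protein gene S100pbp, 0 passed by limma (1 higher and 2 lower at an unadjusted p under 0.05). S100a11, with the highest signal of that list, was at 0.23 (SE 0.13) and S100a1 at -0.34 (SE 0.16). Of 19 other matrix metalloproteinases 0 passed (3 higher and 1 lower unadjusted), and 16 of them were in the range of background on all 6 arrays; the same held for 4 of 5 metalloproteinase inhibitors. Mmp19 was at -0.46 (SE 0.23) and Mmp2 at -0.29 (SE 0.18); of the inhibitors, Timp2 was at -0.18 (SE 0.13) and Reck at 0.36 (SE 0.14), with 0 passed (1 higher and 0 lower unadjusted). Among 12 other chitinase-like, ficolin and lipocalin genes 0 passed (2 higher and 0 lower unadjusted), with Chil1 at 0.44 (SE 0.17) and Ptgds at -0.01 (SE 0.17). Of 7 cystatins and stefins, cysteine protease inhibitors, 1 rose and 0 fell (3 higher and 1 lower unadjusted); Stfa2l1 went from 8.54 ± 0.46 to 10.70 ± 0.48 (SD, n = 3; 4.46-fold, limma adjusted p = 0.00316); stefin genes are close copies of each other, and whether its probes tell them apart is not known here.

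Of 12 receptors and partners of the secreted proteins 1 rose and 2 fell, against 0.374% and 1.05% of all genes (3 higher and 3 lower at an unadjusted p under 0.05). Fpr2, a formyl peptide receptor that also binds cathelicidin peptides, started in the range of background and rose at least 4.49-fold (limma adjusted p = 5.82e-05). Bsg, basigin, fell from 11.62 ± 0.11 to 10.84 ± 0.13 (SD, n = 3; limma adjusted p = 0.0193, and 0.0743 after cyclic loess), and Cd36 fell (limma adjusted p = 0.0189) within values that were above background on 1 of the 6 arrays. Tlr4 and Ager, receptors for calprotectin, did not pass.

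**Figure D3:**
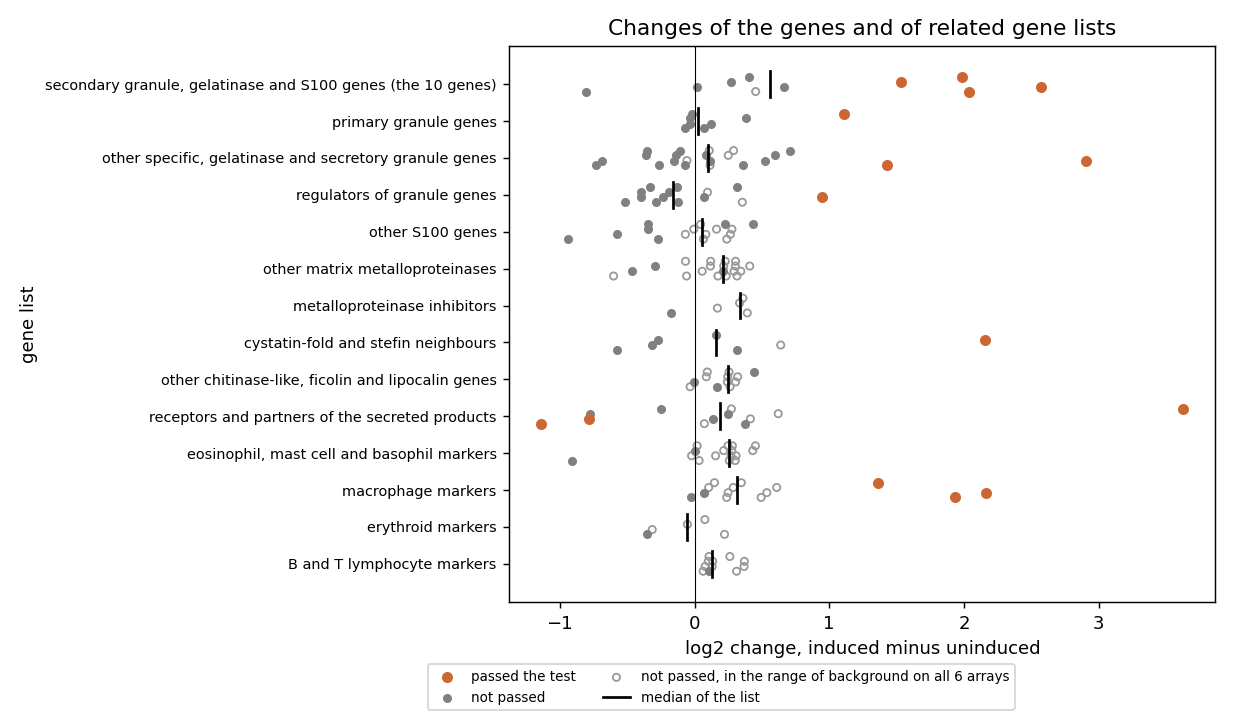
Log2 change, induced minus uninduced (x axis), of the 10 genes and of the genes of each related list (rows): orange points passed the test, filled grey points did not, open points did not and were in the range of background on all 6 arrays, vertical bars are list medians. The 10 genes hold 4 passing points and a median of 0.56, while the medians of the related lists run from -0.16 to 0.33.

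Markers of other cells were measured beside these genes. Of 14 macrophage markers 3 rose and 0 fell, against 0.374% and 1.05% of all genes (6 higher and 0 lower unadjusted), with a median change of 0.32. The 3 were Adgre1 (F4/80) at least 3.02-fold, Mrc1, the mannose receptor, at least 2.21-fold, and Cd68, a lysosomal protein, by 1.36 (SE 0.18, limma adjusted p = 0.00563). The median level of the macrophage list was between 6.42 and 6.53 on the uninduced and between 6.77 and 7.10 on the induced arrays, with 2 to 3 and 4 markers above background; 9 of the 14 were in the range of background on all 6, namely Csf1r, Marco, C1qb, C1qc, Cd163, Timd4, Mertk, Msr1 and Siglec1. Of these, Mertk, Msr1 and Siglec1 were higher at an unadjusted p under 0.05, with measured changes of 0.61, 0.54 and 0.49. Chil3 is expressed by macrophages as well as by neutrophil precursors, and the part of macrophages in its rise was not tested. Of 16 eosinophil, mast cell and basophil markers 0 passed (4 higher and 1 lower unadjusted) and 14 were in the range of background on all 6 arrays, Prg2, Epx and Siglecf among them; Kit was at 9.46 ± 0.27 and 9.47 ± 0.26 (SD, n = 3) and Mcpt8 had a measured change of -0.91 (SE 0.21, limma adjusted p = 0.0666). Of 11 lymphocyte and 5 erythroid markers measured 0 passed (2 higher and 0 lower, and 0 higher and 2 lower, unadjusted), and 10 and 4 were in the range of background on all 6 arrays; Tfrc, above it on all, was at -0.36 (SE 0.15), Epor at 0.08 (SE 0.14), Cd79b at 0.31 (SE 0.14) and Pax5 at 0.11 (SE 0.15). The list of 8 genes of primary granules or neutrophil precursors is given above, of which 1, Mpo, rose and 0 fell, with a median change of 0.03. Elane, neutrophil elastase, did not pass and was at 13.34 ± 0.03 in uninduced and 13.41 ± 0.08 in induced cells (SD, n = 3).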

How the data were processed

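RNA of 3 uninduced and 3 induced samples was measured, 1 array each. The deposited log2 values, made by the authors, were used as given; Partek and mm10 are named per the submitters' processing notes, while the software version and how background, scaling and probe summary were handled is not given in the sources used here. The log2 scale was read from the values (2.86 to 14.03; array medians 6.53 to 6.78).

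Of 41345 transcript clusters, 23521 carried 1 symbol in the platform annotation from GEO (possibly outdated); 1814 carried several and 16010 none. The cluster with the highest mean stood for a gene. limma 3.58.1 in R 4.3.3 (lmFit, eBayes, two-sided, no covariate, no filter) was fitted to all 22180 genes. On simulated data with 200 changed genes it recovered 1.49% of log2 changes of 0.5, 64.2% of 1 and 98.5% of 2. There were 4 false calls. The simulated noise was independent between genes, so differences that span a whole array were not modelled. The shares recovered may not hold for these arrays. The number of arrays limits the precision. A fold is given as at least a value where a group was in the range of background on all 3 arrays and the other above it on at least 2. It is counted from the mean background level of the dimmer group's arrays. Background was higher on induced B and C than on the uninduced arrays. Such a fold takes no account of this difference, and its part was not tested.

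The 10 members, 13 comparison lists (161 of 175 names found) and tests were chosen with earlier results of these data known. The text names all members, from each list up to 4 genes past the threshold or else the 2 with the highest mean, and the 3 nearest patterns of 2 members; other genes were chosen after their values were seen. Samples with the same letter are not stated to share a culture, and their deviations correlated at -0.31, -0.28 and 0.42 for A, B and C, so the letter was left out of the model. Alternatives were the letter as a block, median centring, quantile normalization, cyclic loess, a dim filter, trend and robust moderation, the mean of clusters, and leaving out each array.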

Additional observations from a re-analysis of the deposited data

How the results depend on the processing

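Chil3, Mmp8 and S100a9 stayed past the threshold in all alternatives run, S100a9 at changes from 1.25 to 1.90. Ltf was lost without uninduced A, uninduced B or induced C, and it and Mmp9 were not tested with dim genes removed, which left 3 members higher. Without 1 array at a time 3 to 7 members were higher, 7 without induced A. Ngp lay below 0 with median centring (-0.12), with induced A alone (-0.078) and without induced B, induced C or uninduced A; its range without 1 array was -0.036 to 0.071. With the letter as a replicate block 1 member, Fcnb, was lower (-0.81, limma adjusted p = 0.0156), and 174 genes were higher and 425 lower, against 83 and 232 as deposited; the letters are not shown to pair the samples. Over all genes, median centring gave 46 higher and 153 lower, cyclic loess 83 and 118, removal of dim genes 77 and 393 of 8770 tested, induced A alone 41 and 19, and leaving out 1 array 45 to 1998 and 47 to 3535, the highest without induced A (9.01% and 15.9% of genes). The higher genes made up 26.3% of calls as deposited, 41.3% after cyclic loess and 68.3% with induced A alone. The cause of these differences was not tested. Levels in the range of background limit Ltf, Mmp8 and Mmp9.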
